A study of Mus musculus with 6 samples.

Results

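The genes described here are 39 listed cell cycle and DNA replication genes: 20 that act in mitosis, 13 that act in DNA replication, the 3 D cyclins and the 3 inhibitors of cyclin-dependent kinases (CDKs) of the Cip/Kip family. They were picked by name, not by their values. A gene was measured by the probe sets of the array whose annotation names that gene and no other, and the probe set with the highest mean signal over all arrays stood for it. This gave values for 38 of the 39 genes, out of 18193 genes on the array. Cyclin B1 (Ccnb1) had no such probe set, so 19 mitosis genes were measured.

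RNA came from endothelial cells that were sorted with an antibody against CD31 from digested mammary glands of FVB/N mice aged 9 weeks, and each of 6 samples was hybridized to 1 Affymetrix mouse array. The 3 control samples had the genotype PyMT;Ets2db/loxP and the 3 deleted samples the genotype PyMT;Fsp-cre;Ets2db/loxP. The comparison asks whether the RNA of tumor endothelial cells differs when Ets2, an Ets family transcription factor, is lost from the surrounding fibroblasts. All 6 mice carried the PyMT oncogene (polyoma middle T antigen, which drives mammary tumors), 1 conventional knockout allele that removes the DNA-binding domain (db) and 1 loxP allele of Ets2, so the controls were heterozygous for Ets2 in every cell. The groups differed by Cre recombinase, driven by the promoter of Fibroblast Specific Protein 1 (S100a4) to act in the fibroblasts. Whether it acted in any of the sorted cells was not tested. One label field of the controls speaks of no oncogene, but their other fields name PyMT, and the genotype field was followed. The study calls the samples biological replicates. Ets2 itself had a log2 signal of 14.38 ± 0.12 in the controls and 14.41 ± 0.10 in the deleted samples (SD, n = 3), so the array gave no check of a deletion made in other cells.

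A cell that divides copies its DNA in S phase and shares it out in mitosis, and the RNAs of the proteins that do this work are made in waves. Growth signals raise the D cyclins, which with their CDKs inactivate the retinoblastoma protein and free the E2F factors to switch on replication genes at the boundary of G1 and S phase. Mitosis genes follow in G2, under the DREAM and B-MYB complexes, which bind a short element called the cell cycle genes homology region (CHR), often with a nearby CCAAT box bound by NF-Y. CDK inhibitors of the Cip/Kip family hold cells in G1 or in quiescence. Endothelial cells of a resting vessel seldom divide, and those of a growing tumor vessel divide more often. RNA from a sorted population is an average over all cells in it. Fewer cells in cycle, less of such RNA per cell and another mix of cells cannot be told apart in these data.

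The promoters of the mitosis and the replication genes differ in these short elements, and stretches of them are shown for 4 mitosis and 2 replication genes because they hold the elements that set the classes apart. The sequences are those of RefSeq on the build GRCm38.p6, written 5′ to 3′ on the strand of the gene, from 100 bases before the start of transcription to 50 bases after it. Capitals mark matches on either strand to a CHR, read as TTTGAA and also with a central C and G as TTCGAA, to a CCAAT box, which on the other strand reads ATTGG, and to an E2F type element. The E2F type elements searched were TTTCGCGC, then TTTGGCGC and also TTTCCCGC. Cyclin B2 (Ccnb2), which activates CDK1, lies at chr9:70421505-70421654 on the minus strand. Cdc20, an activator of the anaphase-promoting complex, lies at chr4:118437294-118437443 on the minus strand. Plk1, a kinase of mitotic entry and spindle assembly, lies at chr7:122159335-122159484 on the plus strand. Kif11, the kinesin that pushes the spindle poles apart, lies at chr19:37376282-37376431 on the plus strand. Mcm3 and Mcm7, subunits of the replicative helicase, lie at chr1:20820263-20820412 and chr5:138171834-138171983, both on the minus strand. In Mcm7 the E2F type element and a CCAAT box overlap.
Ccnb2: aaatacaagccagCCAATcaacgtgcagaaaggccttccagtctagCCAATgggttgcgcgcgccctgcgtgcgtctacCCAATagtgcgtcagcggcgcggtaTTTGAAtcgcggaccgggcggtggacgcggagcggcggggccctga
Cdc20: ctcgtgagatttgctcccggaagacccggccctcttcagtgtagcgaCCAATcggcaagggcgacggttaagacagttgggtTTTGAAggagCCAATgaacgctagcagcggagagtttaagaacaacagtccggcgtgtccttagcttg
Plk1: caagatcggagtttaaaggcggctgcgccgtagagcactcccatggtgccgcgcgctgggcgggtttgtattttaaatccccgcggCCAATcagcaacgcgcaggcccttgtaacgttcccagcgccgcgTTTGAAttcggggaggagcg
Kif11: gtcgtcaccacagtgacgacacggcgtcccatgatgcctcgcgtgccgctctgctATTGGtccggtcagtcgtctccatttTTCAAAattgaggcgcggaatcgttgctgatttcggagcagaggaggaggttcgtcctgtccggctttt
Mcm3: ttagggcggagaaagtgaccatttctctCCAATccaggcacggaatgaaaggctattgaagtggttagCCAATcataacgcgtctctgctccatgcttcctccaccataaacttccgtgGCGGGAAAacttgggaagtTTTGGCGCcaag
Mcm7: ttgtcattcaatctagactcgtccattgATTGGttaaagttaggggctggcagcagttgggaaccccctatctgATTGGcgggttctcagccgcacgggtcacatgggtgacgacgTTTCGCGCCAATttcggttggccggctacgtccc

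Over the full RefSeq windows of 250 bases before to 50 after the start, a CHR stood in 12 of the 16 mitosis promoters in the table (75.0%) and in 2 of the 12 replication promoters (16.7%), and in 19.2% of all 32851 promoters. An E2F type element stood in 1 mitosis promoter (6.25%), that of Cdk1, in 5 replication promoters (41.7%) and in 1.84% of all. A CCAAT box was frequent in both classes, in 14 mitosis promoters (87.5%) and 9 replication promoters (75.0%), against 37.4% of all. The mitosis promoters without a CHR were those of Birc5, Ccnb1, Cenpe and Nusap1. The replication promoters with a CHR were that of Mcm2 and 1 of Mcm7. In Mcm7 it begins at -173 from the start, in the promoter shown above but outside the stretch printed. The promoters of 4 mitosis and 2 replication genes were not in the table, and Mcm7 had 2 promoters there. A longer list of other mitosis genes gave a similar picture for the CHR, in 28 of 38 promoters (73.7%). Other replication genes did so for the E2F type element, in 14 of 47 (29.8%). A CCAAT box stood in 29 of these 38 mitosis promoters (76.3%), but in only 23 of the 47 replication promoters (48.9%), nearer to the share of all. The 2 promoters of the D cyclins in the table, both of Ccnd3, and the 3 of the CDK inhibitors, of Cdkn1a and Cdkn1b, held neither a CHR nor an E2F type element. A match describes the letters in the window and is not evidence that a factor binds there.

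**Figure D1:**
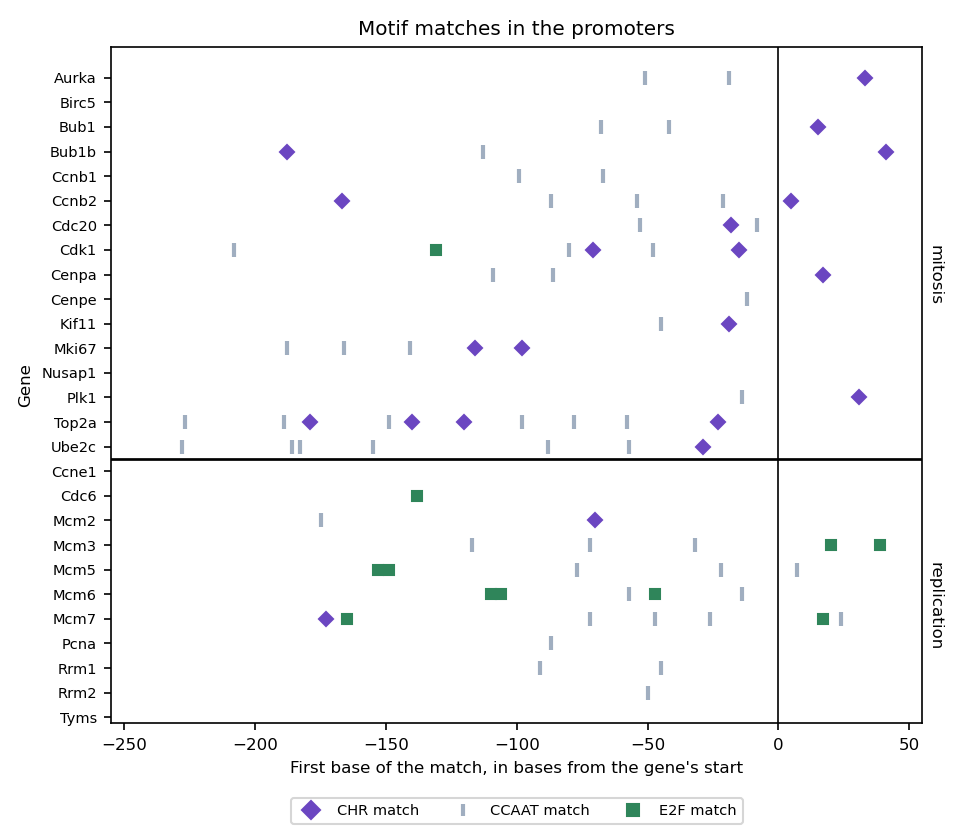
Matches to the CHR, CCAAT and E2F type elements in the promoters of the mitosis genes (upper block) and the replication genes (lower block). The horizontal axis is the position of the first base of each match in bases from the start of transcription, and the 2 promoters of Mcm7 share a row. CHR matches (diamonds) fill the upper block, in 12 of 16 promoters, and E2F type matches (squares) stand mostly in the lower block, in 5 of 12.

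Endothelial markers were measured on all 6 arrays. Pecam1, which encodes CD31, had a log2 signal of 11.30 ± 0.41 in the controls and 11.69 ± 0.37 in the deleted samples (SD, n = 3), and all 14 endothelial markers had a mean signal above the median of the table, which was 7.03. The same held for all 12 epithelial and all 6 pericyte markers, for 11 of 12 macrophage markers, and for 8 of 10 pan-leukocyte and 8 of 10 fibroblast markers. Among the epithelial markers Krt8 was the brightest, at 13.90 ± 0.25 in the controls and 13.75 ± 0.32 in the deleted samples. Epcam was at 12.35 ± 0.30 and 12.46 ± 0.04, and both were above Pecam1. All of the 14 endothelial markers but Erg and Cdh5 were brighter than Pecam1, however. Flt1, at 13.15 ± 0.36 and 13.16 ± 0.23, and Tek, Emcn, Robo4 and Egfl7 were above Epcam in both groups. None of the 14 was above Krt8. Signals of different probe sets do not compare the amounts of 2 RNAs. The dimmest epithelial marker was Cldn4, at 8.40 ± 0.23 and 8.63 ± 0.47. Which of the sorted cells the cell cycle RNAs came from was not tested. All 12 macrophage markers had a lower mean in the deleted samples, with a median difference of -0.71 on the log2 scale, as did all 10 fibroblast markers, with a median of -0.48. Of the 45037 probe sets tested 0 (0%) passed an adjusted p of 0.05 in limma, and 934 (2.07%) had an unadjusted p under 0.05.

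The mitosis and replication genes were expressed in both groups. Their class means spread further among samples of one genotype than the 2 genotype means lay apart, which is a description and not a test. On 2 arrays, 1 of each group, nearly all of these RNAs were low together, and on 3 others, again from both groups, nearly all were high. No member passed the test between the groups. All 38 representative probe sets had a mean signal above the median of the table. Among them 27 had a higher and 11 a lower mean in the deleted samples, with a median difference of 0.11 on the log2 scale, and over all genes 50.9% had a higher mean, with a median difference of 0.00. None of the 38 had an unadjusted p under 0.05, against 1.79% of all genes, the smallest being 0.114, and every adjusted p in limma was 0.9999 or above. The count of 27 depended on single arrays, and was 14 of 38 without control replicate 1 and 36 of 38 without deleted replicate 3.

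The pattern over arrays was plain in the mean of each class, taken as the deviation of each gene from its own mean over the 6 arrays. For the 19 mitosis genes this mean was -0.41, 0.01 and 0.30 on control replicates 1, 2 and 3, and 0.27, 0.39 and -0.55 on deleted replicates 1, 2 and 3 (log2). All 19 were below their own mean on control replicate 1 and on deleted replicate 3, and all 19 were above it on deleted replicate 2. On deleted replicate 1 there were 18 above, on control replicate 3 there were 17, and on control replicate 2 there were 12. The 13 replication genes were at -0.37, -0.04 and 0.20 on the control arrays and 0.20, 0.29 and -0.28 on the deleted arrays, so they had the same lowest pair of arrays, with control replicate 1 rather than deleted replicate 3 at the bottom. Of these 13, 12 were below their own mean on control replicate 1 and 12 on deleted replicate 3. Mcm4, by its representative probe set, was the exception on both arrays. A second probe set of Mcm4 was below its own mean on control replicate 1.

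For the class means, samples of one genotype spread further than the group means lay apart. Single samples commonly spread further than means of 3 samples differ, so this does not test the groups. How many of all genes show the same was not counted. The class mean of the mitosis genes was -0.03 ± 0.36 in the controls and 0.03 ± 0.51 in the deleted samples (SD, n = 3). The difference was 0.07, and values ran from -0.41 to 0.30 within the controls and from -0.55 to 0.39 within the deleted samples. For the replication genes the class mean was -0.07 ± 0.29 and 0.07 ± 0.31, a difference of 0.14. Their values ran from -0.37 to 0.20 within the controls and from -0.28 to 0.29 within the deleted samples. Over all 6 arrays the ranges were 0.94 (1.92-fold) and 0.66 (1.58-fold), which cannot be smaller than the group differences. The median SD within a group was 0.42 for the mitosis genes and 0.34 for the replication genes, against 0.22 over all genes. Of all genes, 13.9% had a larger SD than the mitosis median and 23.8% a larger one than the replication median.

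**Figure D2:**
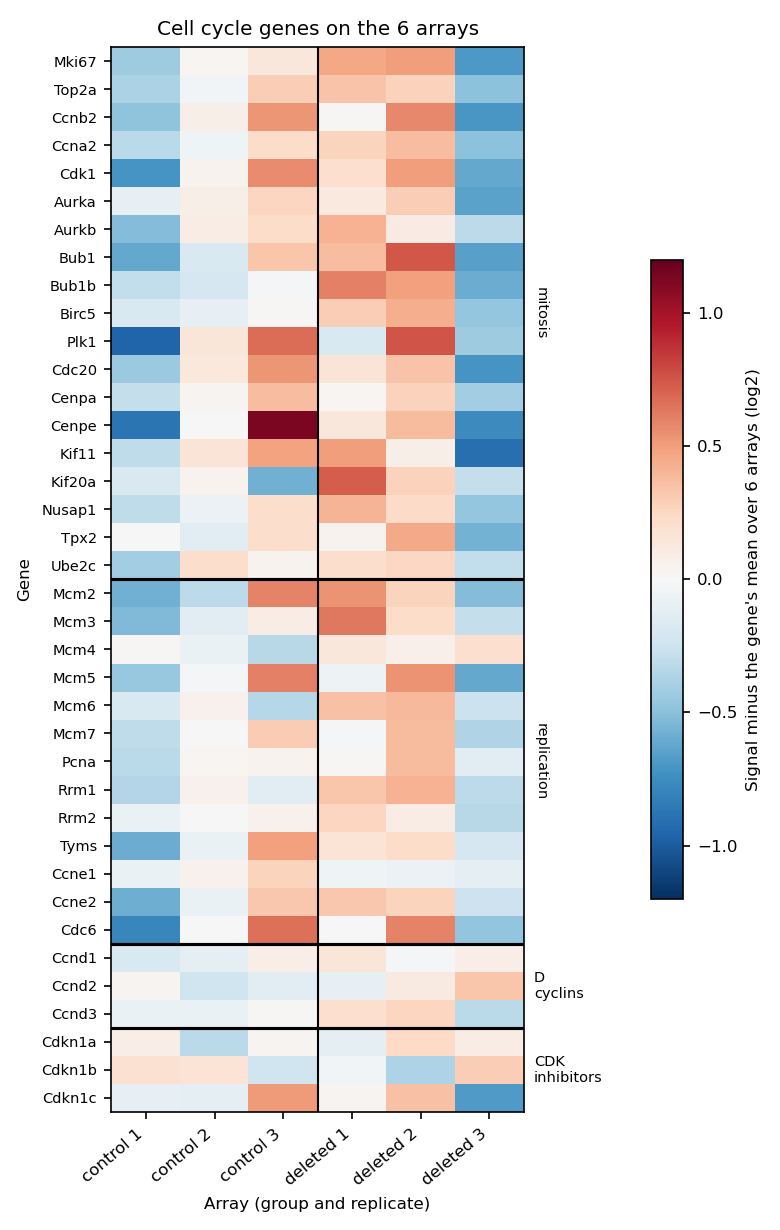
Signal of each of the 38 measured genes on each of the 6 arrays, as the log2 signal minus the gene's mean over the 6 arrays (red higher, blue lower), with the classes divided by black lines and the control arrays left of the vertical line. The columns of control replicate 1 and deleted replicate 3 lie below the mean for all 19 mitosis genes, the columns of control replicate 3 and of deleted replicates 1 and 2 are mostly red, and of the D cyclins and CDK inhibitors only Ccnd3 and Cdkn1c lie below their mean on both of the first-named arrays.

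Among the mitosis genes, Mki67, whose protein Ki67 coats mitotic chromosomes and is the usual marker of cells in cycle, gave 11.11, 11.56 and 11.67 on control replicates 1 to 3 and 12.00, 12.04 and 10.85 on deleted replicates 1 to 3 (log2 signal). Both the highest value and the lowest were in deleted samples, with all 3 controls between them. The mean was 11.44 ± 0.30 in the controls and 11.63 ± 0.68 in the deleted samples (SD, n = 3), so that the deleted samples were 0.18 higher, with -0.62 and 0.99 as the 95% limits in limma. Without deleted replicate 3 the difference was 0.57, and without control replicate 1 it was 0.01.

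Top2a, the topoisomerase that untangles chromosomes before they separate, gave 9.96, 10.30 and 10.63 on the control arrays and 10.68, 10.62 and 9.85 on the deleted arrays. The groups overlapped fully, since the deleted samples held the lowest and the highest value. The difference was 0.09, with 95% limits of -0.56 and 0.73. Dimmer probe sets of Top2a, below the median signal of the table, went the other way, with differences of -0.45 and -0.03.

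The kinesin Kif20a, which works at the spindle midzone and in cytokinesis, had the largest difference of the mitosis genes. It gave 8.07, 8.30 and 7.68 in the controls and 8.98, 8.53 and 7.96 in the deleted samples. The difference was 0.47 (SE 0.29), or 1.39-fold, and deleted replicate 3 lay below 2 of the controls. Kif20a was the only mitosis gene whose lowest value was on control replicate 3, an array on which most of the class was high.

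The checkpoint genes Bub1 and Bub1b, whose proteins hold back anaphase until the chromosomes are attached, came next. Bub1 gave 8.59, 9.02 and 9.54 in the controls and 9.57, 9.95 and 8.55 in the deleted samples, a difference of 0.30 (SE 0.39). Bub1b gave 8.82, 8.92 and 9.11 in the controls and 9.73, 9.61 and 8.53 in the deleted samples, a difference of 0.34 (SE 0.32). In both genes 2 deleted samples lay above every control and deleted replicate 3 lay below every control. For Bub1b the controls were close together, with an SD of 0.14, and the deleted samples were not, with an SD of 0.66. A dimmer probe set of Bub1 had a difference of -0.19, and the dimmer ones of Bub1b had 0.19 and 0.05.

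Kif11 had the lowest difference of the class, -0.22 (SE 0.38). It gave 8.14, 8.60 and 8.93 in the controls and 8.94, 8.51 and 7.54 in the deleted samples, so that deleted replicate 3 alone fell outside the range of the controls by more than 0.5, and without that array the difference was 0.17. The sign of its difference therefore rested on 1 array.

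The other mitosis genes had differences between -0.17 for Cenpe, the kinesin that carries chromosomes to the spindle equator, and 0.18 for Birc5, which encodes survivin of the chromosomal passenger complex. Cdk1, the kinase that drives mitotic entry, differed by 0.06, its partners Ccna2 and Ccnb2 by 0.10 and -0.08, and Plk1 by 0.10. Aurkb, the kinase of the passenger complex, differed by 0.14, and Aurka and its activator Tpx2, which build the spindle poles, by -0.15 and -0.05. For the centromeric histone Cenpa the value was -0.08, for Nusap1, which bundles spindle microtubules, 0.11, and for Cdc20 and Ube2c, the activator and the ubiquitin carrier of the anaphase-promoting complex, -0.14 and 0.11. Dimmer probe sets of Cdc20 had 0.22 and -0.08, and those of Cenpa had 0.36 and -0.41. Of the 12 mitosis genes with several probe sets, 4 had all of them in one direction. The range of a mitosis gene over the 6 arrays, which also holds any group difference, had a median of 1.19, or 2.29-fold. It ran from 0.67 for Ube2c, or 1.59-fold, to 2.01 for Cenpe, or 4.02-fold. Over all genes the median range was 0.58.

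Of the 19 mitosis genes 12 had a higher and 7 a lower mean in the deleted samples, with a median difference of 0.10, and none was without overlap between the groups. Leaving out control replicate 1 gave 5 higher and 14 lower with a median of -0.08, and leaving out deleted replicate 3 gave 19 higher and 0 lower with a median of 0.34. Leaving out deleted replicate 1 or deleted replicate 2 also turned the median, to -0.03 and -0.06, and without control replicate 3 it was 0.25. It was 0.51, with 19 of 19 higher, without both control replicate 3 and deleted replicate 3, and -0.02, with 7 of 19 higher, when limma weighted the arrays by their quality.

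**Figure D3:**
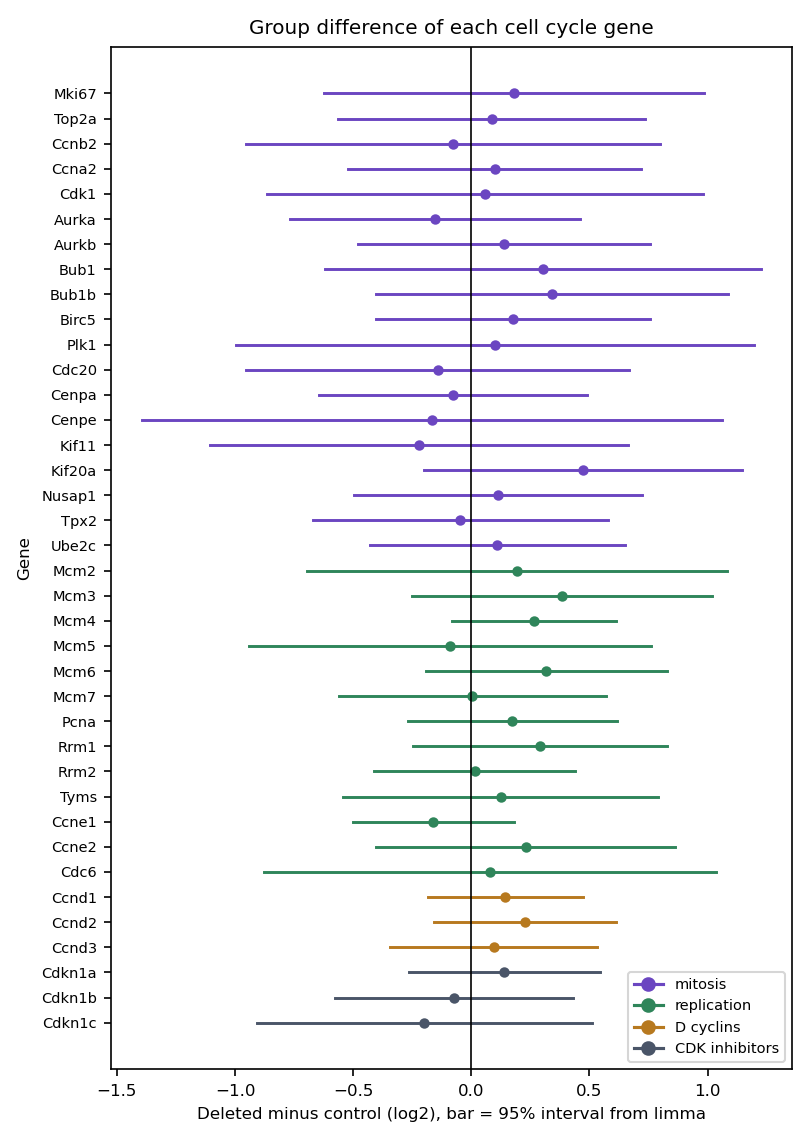
Difference between the groups for each of the 38 genes, as deleted minus control on the log2 scale, with the 95% interval from limma as a bar, colored by class. All 38 intervals cross 0, and the median half-width is 0.67 for the mitosis and 0.57 for the replication genes, the widest interval reaching from -1.39 to 1.06 for Cenpe.

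Among the replication genes, the minichromosome maintenance proteins Mcm2 to Mcm7 form the ring that unwinds DNA. Mcm3 had the largest difference, at 9.94, 10.34 and 10.56 in the controls and 11.11, 10.69 and 10.19 in the deleted samples. The difference was 0.38 (SE 0.27), or 1.31-fold, and deleted replicate 3 lay below 2 of the controls. All 5 probe sets of Mcm3 had a higher mean in the deleted samples.

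Mcm4 was the only measured gene of the 38 whose groups did not overlap. It gave 12.25, 12.16 and 11.91 in the controls and 12.38, 12.30 and 12.44 in the deleted samples, a difference of 0.26 (SE 0.15), or 1.20-fold, and its adjusted p in limma was 0.9999. A second probe set of Mcm4 gave 11.00, 10.99 and 10.88 against 11.41, 11.27 and 11.14, also without overlap, with a difference of 0.32 (SE 0.14). Over all genes 6.07% had groups without overlap, and 3.36% had them with the deleted samples higher, so that 1 of 38 is near the background. On deleted replicate 3, where the other replication genes were low, the first probe set of Mcm4 had its highest value. The second had there the lowest of its values in the deleted samples.

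Mcm6 gave 11.12, 11.36 and 10.97 in the controls and 11.66, 11.70 and 11.05 in the deleted samples, a difference of 0.32 (SE 0.22). Rrm1, the large subunit of ribonucleotide reductase, which makes the building blocks of DNA, gave 9.98, 10.38 and 10.20 in the controls and 10.66, 10.75 and 10.02 in the deleted samples, a difference of 0.29 (SE 0.23). In both genes 2 deleted samples stood above every control while deleted replicate 3 lay within their range. Like Kif20a and Mcm4, Mcm6 had its lowest value on control replicate 3.

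Pcna, the sliding clamp of the replicative polymerases, gave 12.42, 12.76 and 12.78 in the controls and 12.75, 13.11 and 12.61 in the deleted samples. One array of each group made the extremes, and the other 4 values lay within 0.2 of each other. The difference was 0.17 with 95% limits of -0.27 and 0.61.

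The remaining replication genes had differences from -0.16 for Ccne1 to 0.23 for Ccne2, the 2 E cyclins that drive entry into S phase with CDK2. Mcm2 differed by 0.19, Mcm5 by -0.09 and Mcm7 by 0.00, a value that was slightly below 0 after a further quantile normalization. Cdc6, which loads the helicase on origins, differed by 0.08, thymidylate synthase (Tyms) by 0.12 and Rrm2, the small subunit of ribonucleotide reductase, by 0.01. Cdc6 had the widest range over the arrays, 1.44 or 2.72-fold, and Ccne1 the narrowest, 0.39 or 1.31-fold. With all arrays 11 of the 13 replication genes had a higher mean in the deleted samples, with a median of 0.17. The count was 5 of 13 with a median of -0.02 without control replicate 1, and 12 of 13 with a median of 0.28 without deleted replicate 3. Without both control replicate 3 and deleted replicate 3 the median was 0.48 (12 of 13 higher), and with array weights it was 0.06 (8 of 13).

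**Figure D4:**
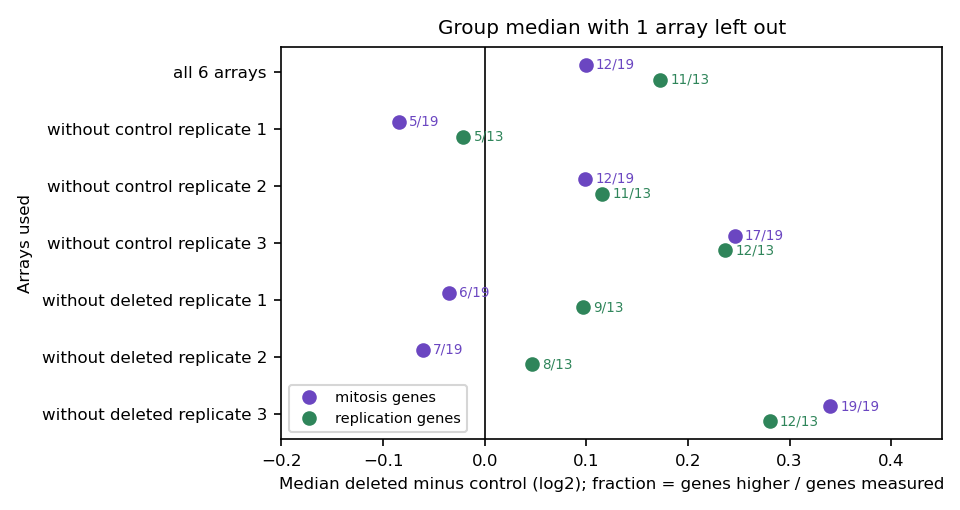
Median difference (deleted minus control, log2) of the 19 mitosis genes and the 13 replication genes with all 6 arrays and with each array left out in turn, where the fraction beside a point gives the genes with a higher mean in the deleted samples out of those measured. The mitosis median moves from -0.08 without control replicate 1 to 0.34 without deleted replicate 3, and the replication median from -0.02 to 0.28.

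The D cyclins respond to growth factors more than to a cell's place in the cycle. Ccnd1 gave 12.50, 12.57 and 12.76 in the controls and 12.83, 12.67 and 12.76 in the deleted samples, a difference of 0.14 (SE 0.14). Ccnd2 gave 12.02, 11.75 and 11.85 against 11.89, 12.09 and 12.32, a difference of 0.23 (SE 0.16). Ccnd2 was highest on deleted replicate 3, the array lowest for the mitosis genes, and the groups overlapped for both cyclins. Ccnd3 gave 9.40, 9.39 and 9.50 against 9.68, 9.73 and 9.16, a difference of 0.09 (SE 0.19), and here 2 deleted samples lay above the controls and the other one below. Like the class mean of the mitosis genes, Ccnd3 was lowest on deleted replicate 3 and highest on deleted replicate 2, while Ccnd1 and Ccnd2 were above their own means on deleted replicate 3.

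All 7 probe sets of Ccnd2 had a higher mean in the deleted samples, by 0.06 to 0.27, and of the 11 D cyclin probe sets above the median signal 10 did. Those of Ccnd1 and Ccnd3 were not all of one direction. A second Ccnd1 probe set, at 11.18, 11.13 and 11.02 in the controls and 11.37, 11.28 and 11.41 in the deleted samples, was without overlap, with a difference of 0.24 (SE 0.13). The dimmest of its probe sets had a difference of -0.17. For Ccnd3 a dimmer probe set gave 7.16, 7.30 and 7.01 against 6.97, 6.59 and 6.78, lower in the deleted samples without overlap, with a difference of -0.38 (SE 0.16) and an adjusted p of 0.9999 in limma. It was the only one of the 90 member probe sets with an unadjusted p under 0.05, against 2.07% of all probe sets.

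The CDK inhibitors had no common direction. Cdkn1a (p21), a target of p53 that stops the cycle after DNA damage, gave 11.14, 10.74 and 11.10 in the controls and 10.95, 11.29 and 11.15 in the deleted samples, a difference of 0.14 (SE 0.17). Cdkn1b (p27), which keeps resting cells in G1, gave 12.09, 12.08 and 11.67 against 11.87, 11.54 and 12.20, a difference of -0.07 (SE 0.21). Cdkn1b was highest on deleted replicate 3 and low on deleted replicate 2 and control replicate 3, the opposite order to most mitosis genes, as a description of 6 arrays. Its second probe set spread far more, from 9.41 on control replicate 3 to 12.01 on control replicate 1, with the deleted samples at 11.00, 10.87 and 11.31. Cdkn1c (p57), an imprinted inhibitor, gave 7.78, 7.76 and 8.39 against 7.91, 8.22 and 7.20, a difference of -0.20 (SE 0.30). Unlike Cdkn1b, it ran as most mitosis genes did, below its own mean on control replicate 1 and deleted replicate 3 and above it on control replicate 3 and deleted replicates 1 and 2.

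Over all 90 probe sets of the 38 genes, 61 had a higher and 29 a lower mean in the deleted samples. Of the 38 mitosis probe sets 20 were higher and 18 lower, and of the 34 replication probe sets 28 were higher and 6 lower. Of the 27 genes with more than 1 probe set, 13 had all of them in one direction, and 11 of 19 did when only probe sets above the median signal were counted.

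Other genes of the cycle, from lists written with earlier results of these data known, ran in the same order over most arrays. Another 40 mitosis genes had class means of -0.41, -0.05 and 0.35 on the control arrays and 0.17, 0.40 and -0.47 on the deleted arrays, and another 42 replication genes, out of 44 listed, had -0.31, -0.06 and 0.21 against 0.12, 0.31 and -0.27. Among the mitosis genes 27 had a higher and 13 a lower mean in the deleted samples (median 0.08), and among the replication genes 32 and 10 (median 0.12). The largest differences were 0.49 for the chromosome motor Kif4, -0.48 for separase (Espl1) and 0.38 for the microtubule depolymerase Kif2c in the first list, and -0.39 for the licensing factor Cdt1, 0.39 for the chromatin remodeler Hells and 0.39 for the helicase cofactor Cdc45 in the second. None passed an adjusted p of 0.05 in limma, none had an unadjusted p under 0.05, and none was without overlap.

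Regulators upstream of these genes varied less as lists, but not each of them. The median range of a gene over the arrays was 0.59 for E2F and pocket protein genes and 0.61 for G1 kinases and INK4 inhibitors. It was 1.19 for the mitosis and 0.77 for the replication genes. E2f2 had the widest range of the E2F and pocket protein genes, at 1.36. The 15 E2F and pocket protein genes were split 7 higher and 8 lower with a median of -0.01, and their class mean stayed between -0.10 and 0.13 on all arrays. The largest differences among them were 0.35 for the repressor E2f8, -0.23 for the activator E2f2 and 0.18 for the dimerization partner Tfdp1. Of 6 G1 kinases and INK4 inhibitors 4 were higher and 2 lower (median 0.15). The INK4 inhibitor Cdkn2c (p18) was without overlap, at 7.68 ± 0.04 in the controls and 7.99 ± 0.07 in the deleted samples (SD, n = 3), a difference of 0.31, and it had an unadjusted p under 0.05 in limma that did not pass adjustment. Of the 118 measured genes of the further lists it was the only one with such a p, against 1.79% of all genes. It was 1 of 3 without overlap, against 6.07% of all genes, with the pocket protein Rbl1 (difference 0.17) and the p53 target Phlda3 (0.25), which were named after their values were seen. Its relatives Cdkn2d and Cdkn2b differed by 0.27 and -0.18. Of 15 measured targets of p53 and growth arrest genes, out of 16 listed, 8 were higher and 7 lower (median 0.03), the largest being Gadd45g at 0.33, Gadd45a at 0.29 and Plk2 at 0.29. The class mean of this last list was 0.07, 0.05 and -0.23 on the control arrays and 0.05, -0.18 and 0.24 on the deleted arrays.

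**Figure D5:**
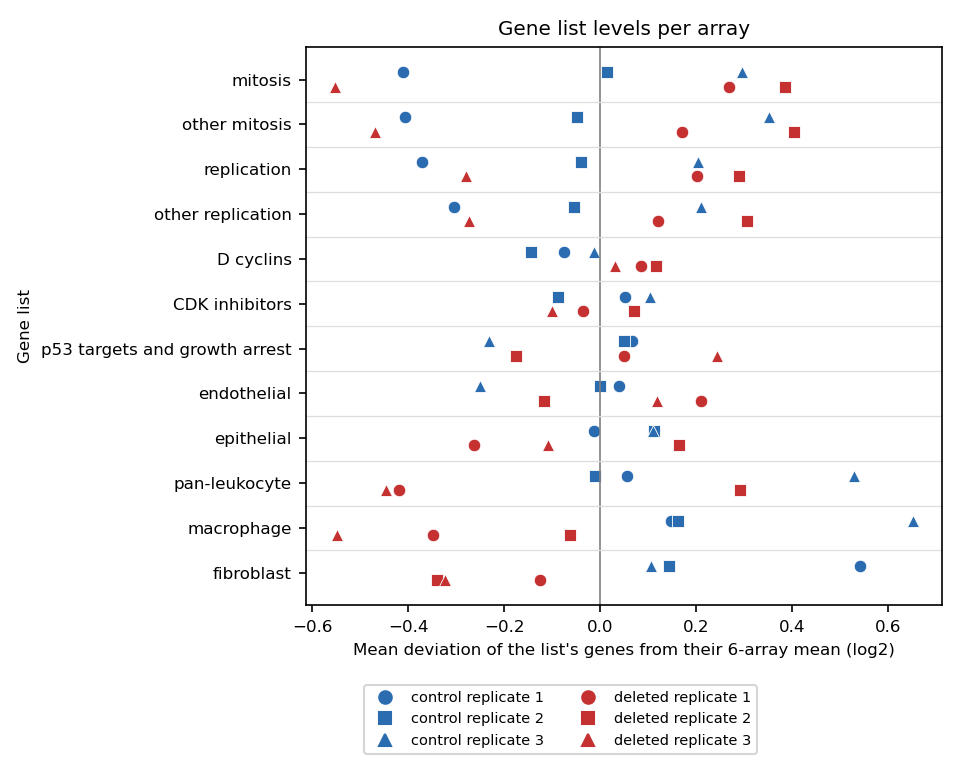
Mean deviation of the genes of each list from their own 6-array means (log2), with 1 symbol per array, blue for control and red for deleted samples. The mitosis and replication lists spread widely within each group, from -0.55 to 0.39 for mitosis, while the macrophage and fibroblast marker lists lie apart by group, above 0 in the controls and below 0 in the deleted samples.

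Markers of other cells and a measure of RNA quality also varied over the arrays. Macrophage markers were at 0.15, 0.16 and 0.65 on the control arrays and -0.35, -0.06 and -0.55 on the deleted arrays, so the array lowest for mitosis genes was also lowest for macrophage markers, while control replicate 1, low for mitosis genes, was not. Pan-leukocyte markers were at 0.06, -0.01 and 0.53 against -0.42, 0.29 and -0.45. Fibroblast markers were highest, at 0.54, on control replicate 1 and between -0.34 and 0.14 on the others. Endothelial markers were at 0.04, 0.00 and -0.25 against 0.21, -0.12 and 0.12, and epithelial markers at -0.01, 0.11 and 0.11 against -0.26, 0.16 and -0.11. The 5 measured B cell markers all had a mean below the median signal of the table. Of the 5 measured T cell markers 4 had a mean above it. T cell markers were at 0.41, -0.44 and 0.02 on the control arrays and 0.18, 0.10 and -0.27 on the deleted arrays.

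The signal of the 3′ probe set minus that of the 5′ probe set of Gapdh, which grows when RNA is degraded or copied short, was 0.75, 0.88 and 1.31 on the control arrays and 1.01, 0.85 and 0.78 on the deleted arrays (log2). It was lowest on control replicate 1 and deleted replicate 3, the arrays low for mitosis genes, and highest on control replicate 3, but on deleted replicate 2, where mitosis genes were highest, it was near the low end. The part of these marker lists and of RNA quality in the levels of the cell cycle genes was not tested.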

How the data were processed

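RNA of 6 samples was measured, with 1 array each. The values deposited by the authors are log2 signals from RMA (Robust Multichip Average), a method that corrects background, equalizes the arrays by quantile normalization and combines the probes of each probe set. The RMA software is not named in the sources used here. RMA makes array totals alike, so a change shared by most RNAs would not show.

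The table held 45101 probe sets. Without 64 control probe sets of the array, 45037 were tested. Gene names came from the platform annotation, with symbols updated through RefSeq: 34945 probe sets had 1 gene, 932 several and 9160 none named. The number of arrays limits the precision.

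limma 3.58.1 in R 4.3.3 (lmFit, eBayes) was fitted to all probe sets with the 3 control and 3 deleted samples, and p-values were adjusted (Benjamini-Hochberg) over all 45037. A fold change is 2 to the power of the log2 difference. The step was tested on simulated data. Samples were grouped by genotype. Leaving out each array, array weights, other normalizations, priors, filters and choices of probe set, and blocks on the number in the sample identifiers were tried.

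Values on every array are given for Mki67, Top2a, Pcna, the D cyclins and CDK inhibitors, the 5 mitosis and 4 replication genes with the largest differences, and any other gene without overlap. The others are given by difference and range. Mki67 is itself the fifth mitosis gene. Of each further list the 3 largest are named, and Rbl1 and Phlda3 beyond this rule. The genes and lists were chosen with earlier results of these data known. Promoter elements were counted as exact matches on both strands in the 300-base windows of the RefSeq table.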

Additional observations from a re-analysis of the deposited data

How the results depend on the processing

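None of the 38 cell cycle genes passed an adjusted p of 0.05 in limma under any of the 17 settings run, and no probe set of the table did under the 15 of them that were run over all probe sets. Of the 38 genes 25 changed the sign of their difference when 1 array was left out and 11 kept it throughout. The mitosis and replication medians were -0.02 and 0.06 with array weights, and 0.03 and 0.19 with the mean over the probe sets of a gene. Over the whole table, 58 probe sets passed a fold of 2 with an unadjusted p under 0.05, and this count was 15 above the median signal, 23 in the unmoderated test, 152 with array weights, 253 without both arrays of unshared number, 317 with the block on the number and 61 to 191 with 1 array left out.

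The sample identifiers hold a number that 2 pairs of samples share, without saying what it marks. Deviations from the group means over all probe sets correlated at r = 0.166 and -0.017 within the pairs. Such a correlation cannot decide whether the number marks something the samples share, since the group means include the arrays of unshared number. The samples were not taken as paired because the meaning of the number is not given. As a fixed replicate block the number gave the same differences as leaving out control replicate 3 and deleted replicate 3, which share no number. This follows from the design, because a number held by 1 array adds nothing to the group difference. For the differences the 2 settings are therefore not separate. They gave medians of 0.51 (19 of 19 higher) for mitosis and 0.48 (12 of 13) for replication, and 36 of 38 genes higher. Control replicate 3 and deleted replicate 3 had class means of 0.30 and -0.55 for mitosis and of 0.20 and -0.28 for replication. Leaving out a high control array and a low deleted array raises the difference. Why these arrays were high and low was not tested. Signs turned to 0.50 for Ccnb2, 0.22 for Aurka, 0.41 for Cdc20, 0.28 for Cenpa, 0.70 for Cenpe, 0.36 for Kif11, 0.32 for Tpx2, 0.48 for Mcm5, 0.30 for Cdkn1c, 0.39 for Espl1, 0.15 for Cdt1, 0.33 for E2f2, -0.041 for Tfdp1, 0.013 for Cdkn2b, -0.46 for Gadd45a and -0.091 for Plk2. As a random block the medians were 0.13 and 0.18.

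Array weights turned Mki67 to -0.021, Cdk1 to -0.087, Aurkb to -0.019, Plk1 to -0.13, Ube2c to -0.16, Mcm7 to -0.053, Rrm2 to -0.039 and Cdc6 to -0.023, and a further quantile normalization turned Mcm7 to -0.00087. The mean over probe sets turned Ccna2 to -0.034, Ccnd3 to -0.15, Cdkn1b to 0.027, Cenpe to 0.011, Mcm5 to 0.13, Rrm2 to -0.051, Top2a to -0.13 and Tpx2 to 0.032. The probe set with the largest variance turned Bub1 to -0.19, Ccna2 to -0.17, Ccnd1 to -0.17, Ccnd3 to -0.16, Cdkn1b to 0.13, Rrm2 to -0.047, Tpx2 to 0.14 and Rbl1 to -0.20.

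With 1 array left out, the difference ran from -0.34 to 0.13 for Aurka, -0.086 to 0.33 for Aurkb, -0.061 to 0.37 for Ccna2, -0.38 to 0.25 for Ccnb2, -0.0099 to 0.28 for Ccnd3, -0.0062 to 0.45 for Ccne2, -0.40 to 0.18 for Cdc20, -0.29 to 0.43 for Cdc6, -0.28 to 0.38 for Cdk1, -0.24 to 0.093 for Cdkn1b, -0.42 to 0.091 for Cdkn1c, -0.24 to 0.11 for Cenpa, -0.65 to 0.36 for Cenpe, -0.52 to 0.10 for E2f2, -0.81 to 0.019 for Espl1, -0.10 to 0.58 for Gadd45a, -0.53 to 0.17 for Kif11, -0.047 to 0.54 for Mcm2, -0.38 to 0.19 for Mcm5, -0.19 to 0.18 for Mcm7, -0.024 to 0.57 for Mki67, -0.060 to 0.38 for Nusap1, -0.36 to 0.46 for Plk1, -0.11 to 0.18 for Rrm2, -0.085 to 0.35 for Top2a, -0.28 to 0.23 for Tpx2, -0.14 to 0.40 for Tyms and -0.071 to 0.29 for Ube2c.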
